A study of Mus musculus with 6 samples.

Results

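A set of 9 genes that make, break, release or carry glutamine, glutamate and ammonia was followed through 6 liver tumors: *Glul*, *Oat*, *Glud1*, *Gls2*, *Rhbg*, *Slc1a2*, *Slc38a3*, *Slc38a2* and *Slc1a5*. They were chosen by name for their function, with earlier results of these data known, and they are 9 of the 35683 genes in the tables. The tumors came from 2 CMRtdT mice, 3 tumors from mouse 2 and 3 from mouse 1, and were excised as macroscopic nodules 6.5 months after AAV8-TBG-Cre. All 6 share 1 genotype and 1 treatment. The mice carry a *Ctnnb1* allele whose exon 3 is removed by Cre, which leaves a β-catenin that escapes degradation, together with the *MUP-uPA* transgene, which injures hepatocytes, and a Cre-activated tdTomato reporter. They were fed a high-fat diet (HFD) from 6 weeks of age and received the virus by tail vein at 8 weeks. The TBG promoter limits Cre to hepatocytes, and the dose was set so that few of them were infected, so each nodule grew among hepatocytes that had not recombined. Non-tumor liver is not analysed here, so the values are levels in tumors and not changes against liver. Tumors of a mouse share that animal, and the only grouping the labels allow is mouse 2 against mouse 1.

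In the liver lobule ammonia is dealt with in sequence. Periportal hepatocytes release ammonia from glutamine with the liver glutaminase GLS2 and feed it, with portal ammonia, into the urea cycle, whose entry enzyme is CPS1. The ring of hepatocytes around the central vein catches what escapes and fixes it onto glutamate with glutamine synthetase (GS, encoded by *Glul*). Wnt/β-catenin signaling maintains that ring, and in mouse liver *Glul*, *Oat*, *Rhbg* and *Slc1a2* are known as genes of its program. OAT turns ornithine into glutamate semialdehyde, a route to glutamate. GLUD1 interconverts glutamate with 2-oxoglutarate and ammonia in mitochondria. RHBG passes ammonia across the basolateral membrane. SLC1A2 (GLT-1), best known from astrocytes, takes up glutamate. SLC38A3 (SNAT3) carries glutamine with sodium in exchange for protons and can run in either direction. SLC38A2 (SNAT2) takes up small neutral amino acids and is induced when they are scarce, and SLC1A5 (ASCT2) exchanges neutral amino acids, glutamine among them, and is common in dividing cells.

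The estimated read counts summed to between 19130532 and 27681766 per tumor. Mouse 1 tumor 1 stood apart from the other 5 across the transcriptome: 8 of 8 hepatocyte markers were at least 4-fold lower there, with a summed level of 1378 TPM in that tumor, against 24610 to 41021 TPM in the other 5. TPM is a share of all transcripts after division by length, so levels of different genes can be set beside each other. Summed macrophage markers were 83.1 TPM in that tumor and 132 to 457 TPM in the other 5, endothelial markers 10.4 and 28.1 to 67.1 TPM, stellate and fibroblast markers 39.1 and 22.0 to 80.8 TPM, cholangiocyte markers 44.2 and 4.61 to 36.4 TPM, lymphocyte markers 1.39 and 4.45 to 11.7 TPM, and neural and glial markers 80.5 and 1.93 to 8.64 TPM. Neutrophil markers summed to 1.74 TPM there and 10.4 to 24.4 TPM in the other 5, and adipocyte markers to 17.7 and 28.3 to 51.5 TPM. At a count of 0 in that tumor were 3 of 7 lymphocyte markers, against 0 in each of the other 5. For neural and glial markers this was 2 of 7 there and 2 to 4 in the other 5. It was 2 of 5 and 0 to 2 for neutrophil markers, 1 of 6 and 0 to 2 for cholangiocyte markers, and 1 of 4 and 1 to 3 for adipocyte markers. In bulk tissue fewer cells of a type and less RNA per cell cannot be told apart. Mouse 1 tumors 2 and 3 were the most alike pair: 27.2% of genes differed between them beyond counting error (chi-square test per gene, p under 0.05), against 59.3% to 94.2% in the other pairs. They were kept as separate samples because the labels name them as separate tumors. The chi-square test measures counting error alone, and separate libraries of 1 nodule could exceed it too. Because of mouse 1 tumor 1, means are given over all 6 tumors and over the 5 without it.

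*Glul* was by far the most abundant of the 9. Its TPM was 4356, 4358 and 4197 in mouse 2 tumors 1, 2 and 3, and 1085, 8365 and 8760.5 in mouse 1 tumors 1, 2 and 3. Each tumor of mouse 2 lay between mouse 1 tumor 1 below and mouse 1 tumors 2 and 3 above. The mean was 5187 ± 2900.1 TPM (SD, n = 6 tumors). It was 6007 ± 2338 TPM (SD, n = 5) without mouse 1 tumor 1. *Glul* ranked between 16 and 29 among all genes in those 5 tumors and 135 in mouse 1 tumor 1, so GS mRNA remained abundant in the tumor that held the least of it. Its ratio to *Alb*, the mRNA of serum albumin, was 1.55 in mouse 1 tumor 1, against 0.320 to 0.528 in the other 5. *Glul* lies on chromosome 1 from 153899929 to 153909723 (GRCm38, as are all positions given). Nearly all of its level came from a single coding transcript of 2792 bases, *Glul-201*, with 992 TPM in mouse 1 tumor 1 and 4178 to 8743 TPM in the other 5. A short coding transcript, *Glul-202* of 681 bases, was estimated at 83.2 TPM in mouse 1 tumor 1 and at no more than 2.22 TPM elsewhere.

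*Oat* followed at 2012, 1484 and 1339 TPM in mouse 2 tumors 1, 2 and 3, and at 263, 2056 and 2233 TPM in mouse 1 tumors 1, 2 and 3. Mouse 2 tumor 1 was close to mouse 1 tumors 2 and 3, and mouse 1 tumor 1 was again the lowest. The mean was 1565 ± 727 TPM (SD, n = 6) and 1825 ± 389.5 TPM (SD, n = 5) without that tumor. *Glul* exceeded *Oat* in each tumor, 2.16 to 3.13-fold in mouse 2 and 3.92 to 4.12-fold in mouse 1. In mouse 1 tumor 1 this ratio was 4.12, the highest of the 6, next to 4.07 and 3.92 in tumors 2 and 3 of that mouse, while both mRNAs were several-fold lower there. *Oat* lies on chromosome 7 from 132557475 to 132576398, and *Oat-201* of 2152 bases gave almost the whole of its level.

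The stretches just upstream of *Glul* and *Oat*, the 2 most abundant members, and of *Slc1a2*, the member with the widest range over the 6 tumors, were searched for TCF/LEF sites, where β-catenin acts, and for CCAAT boxes, a common promoter element. They are printed 5′ to 3′ on the strand of the gene as the 250 bases before the RefSeq start (GRCm38.p6), with the matched motifs in capitals.
Glul, chr1:153899679-153899928, plus strand: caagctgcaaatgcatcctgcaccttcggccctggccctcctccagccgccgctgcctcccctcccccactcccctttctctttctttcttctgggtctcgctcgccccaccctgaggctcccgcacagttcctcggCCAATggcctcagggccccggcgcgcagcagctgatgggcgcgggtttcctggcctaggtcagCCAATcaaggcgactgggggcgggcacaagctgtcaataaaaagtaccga
Oat, chr7:132576399-132576648, minus strand: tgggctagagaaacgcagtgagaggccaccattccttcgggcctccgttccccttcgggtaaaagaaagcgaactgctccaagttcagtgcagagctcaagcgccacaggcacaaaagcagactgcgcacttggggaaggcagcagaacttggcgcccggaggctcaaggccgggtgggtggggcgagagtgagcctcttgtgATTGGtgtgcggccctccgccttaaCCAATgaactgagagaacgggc
Slc1a2, chr2:102706188-102706437, plus strand: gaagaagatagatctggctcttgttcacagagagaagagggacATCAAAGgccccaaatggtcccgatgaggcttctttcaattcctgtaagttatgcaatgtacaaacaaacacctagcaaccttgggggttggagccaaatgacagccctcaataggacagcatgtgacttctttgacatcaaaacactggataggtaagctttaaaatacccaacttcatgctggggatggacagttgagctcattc
The letters searched on both strands were CTTTGAA or CTTTGAT or CTTTGTA or CTTTGTT for TCF/LEF and CCAAT for the CCAAT box. *Glul* holds CCAAT at positions -113 and -50, counted back from the start at -1, and *Oat* holds it at -22 and, on the opposite strand, at -47. *Slc1a2* holds the TCF/LEF heptamer on the opposite strand at -207. Of all 32851 promoters in the table, 14.8% contain at least 1 of these TCF/LEF letters and 33.8% a CCAAT box in the same window. The table has entries for 5 of the 9 genes, and the windows of *Glud1* and *Slc38a2* hold neither motif. These matches describe the letters of a short window and were not tested for binding.

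**Figure D1:**
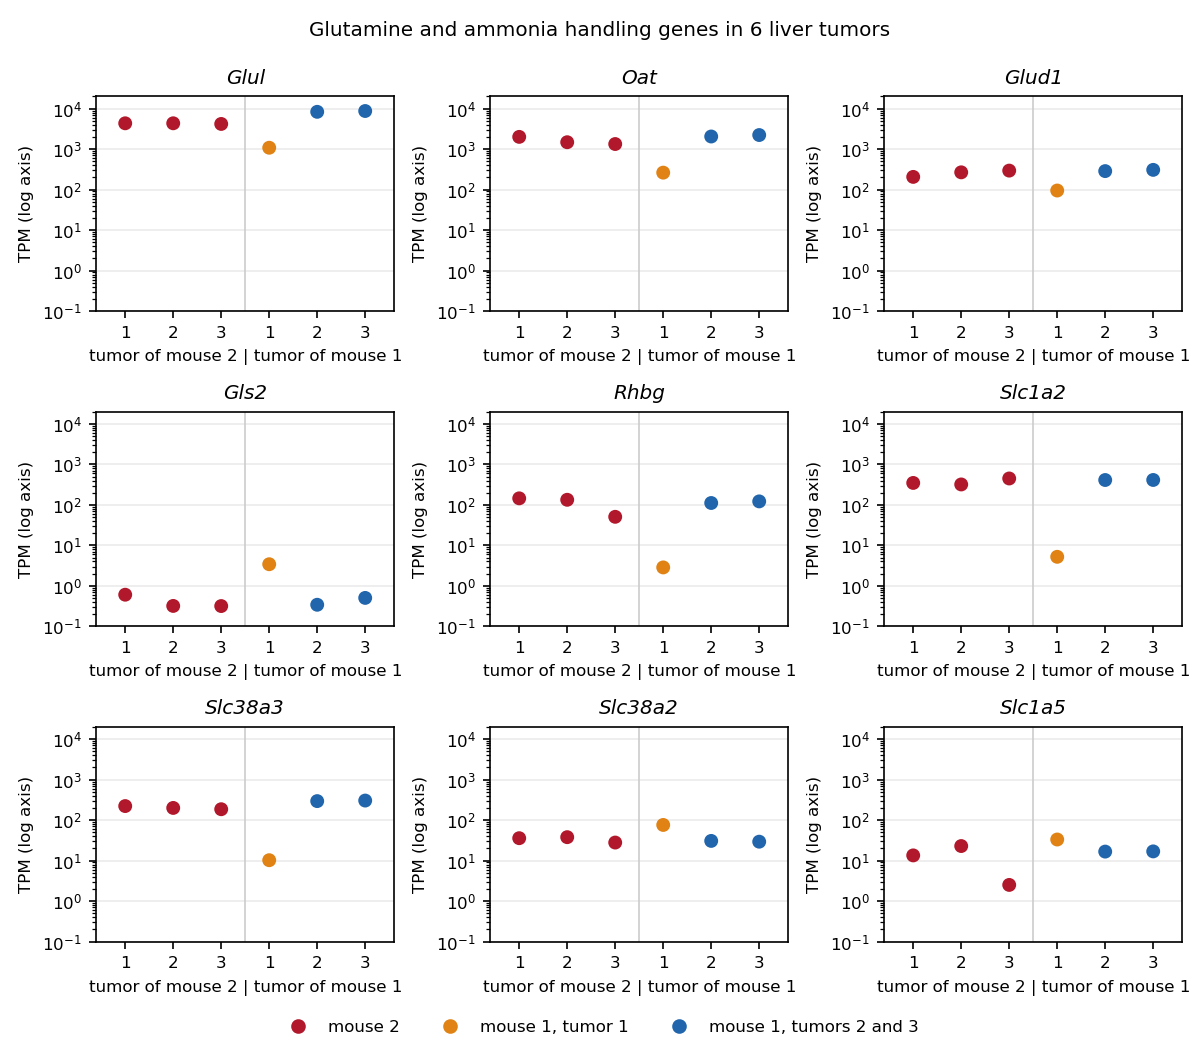
TPM (log axis, the same in each panel) of the 9 genes in the 3 tumors of mouse 2 at the left and the 3 tumors of mouse 1 at the right, with 1 point per tumor. *Glul* lies between 1085 and 8760.5 TPM and *Gls2* between 0.317 and 3.42 TPM, and mouse 1 tumor 1 is the lowest point in 6 panels and the highest in 3.

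The enzymes on the other side of the exchange were at very different levels. *Glud1* had 207, 268 and 295 TPM in mouse 2 tumors 1, 2 and 3, and 95.1, 287 and 308 TPM in mouse 1 tumors 1, 2 and 3. The tumors of mouse 2 overlapped mouse 1 tumors 2 and 3, and of the 6 genes that were lowest in mouse 1 tumor 1 *Glud1* was nearest there to its level elsewhere. Its mean was 243 ± 80.9 TPM (SD, n = 6) and 273 ± 39.9 TPM (SD, n = 5). The ratio of *Glul* to *Glud1* was 21.1, 16.3 and 14.2 in mouse 2 and 11.4, 29.1 and 28.4 in mouse 1. *Glud1* lies on chromosome 14 from 34310727 to 34345033. Its main coding transcript, *Glud1-201* of 3390 bases, had 81.3 TPM in mouse 1 tumor 1 and 171 to 241 TPM elsewhere. A short transcript without a defined coding sequence, *Glud1-202* of 699 bases, was at 30.7 to 62.1 TPM in those 5 tumors and at a count of 0 in mouse 1 tumor 1.

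*Gls2*, the liver glutaminase, was close to the floor of the assay in 5 tumors. It had 0.604, 0.319 and 0.317 TPM in mouse 2 tumors 1, 2 and 3, and 3.42, 0.341 and 0.504 TPM in mouse 1 tumors 1, 2 and 3. These rest on 17, 10 and 14 reads in mouse 2 and on 93, 10 and 19 reads in mouse 1, so differences among the 5 low tumors were not detectable at this depth. The coding transcript *Gls2-201* of 2573 bases had 57.3 estimated reads in mouse 1 tumor 1 and at most 5.05 in any other tumor, and the other reads were assigned to transcripts with a retained intron or to targets of nonsense-mediated decay. *Gls2* lies on chromosome 10 from 128194635 to 128210004.

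*Rhbg* was the only Rh-type ammonia channel with a substantial level. Its TPM was 145, 134 and 50.8 in mouse 2 tumors 1, 2 and 3, and 2.85, 111 and 122 in mouse 1 tumors 1, 2 and 3. Mouse 2 tumor 3 had the next lowest value after mouse 1 tumor 1, and the other 4 tumors lay close together. The mean was 94.3 ± 55.6 TPM (SD, n = 6) and 113 ± 36.8 TPM (SD, n = 5). *Rhbg* lies on chromosome 3 from 88242874 to 88254739 and has 1 transcript in the tables. *Rhcg*, a related channel of kidney and other epithelia, was at a count of 0 in all 6 tumors, which allows up to 3 reads in each. *Rhag*, the erythroid member, had 20 and 25 reads in mouse 1 tumors 2 and 3 and 0 in the other 4.

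*Slc1a2* had 349, 320.0 and 449 TPM in mouse 2 tumors 1, 2 and 3, and 5.22, 412 and 413 TPM in mouse 1 tumors 1, 2 and 3. Apart from mouse 1 tumor 1 the tumors were within 1.40-fold of each other, and the tumors of mouse 2 lay on both sides of mouse 1 tumors 2 and 3. The mean was 325 ± 163 TPM (SD, n = 6) and 389 ± 52.7 TPM (SD, n = 5). In those 5 tumors *Slc1a2* ranked between 266 and 386 among all genes, and in mouse 1 tumor 1 it ranked 9994. Markers of neural and glial cells, where SLC1A2 is also made, were at mixed levels. Of the astrocyte genes, *Gfap* was at no more than 0.0236 TPM in any tumor. *Aqp4* had 2.96 TPM in mouse 2 tumor 3 and 0.0981 to 0.327 TPM in the other 5. Mouse 2 tumor 3 had the most *Slc1a2* in TPM. On the TMM scale, per kilobase, it had 401, below 436 in mouse 2 tumor 1. Of the neuronal genes, *Slc17a7* was at 0 in all 6 tumors and *Slc17a6* at no more than 0.0373 TPM, while *Syt1* had 43.4 TPM, *Tubb3* 36.4 TPM and *Snap25* 0.520 TPM in mouse 1 tumor 1, against 1.67 to 7.69 TPM, 0 to 1.00 TPM and 0 TPM in the other 5. Their part in the level of *Slc1a2* was not tested. *Slc1a1*, the other glutamate transporter of this family with a mean above 1 TPM, had 4.44, 9.24 and 0.0792 TPM in mouse 2, and 0.288, 11.3 and 12.6 TPM in mouse 1.

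The transcripts of *Slc1a2* fall into those that begin at the start of the annotated gene and those that begin at an internal first exon, 48199 bases downstream in the RefSeq annotation, where the promoter printed above lies. The gene spans 102658239 to 102790784 on chromosome 2. The internal first exon took 51.2%, 55.6% and 77.9% of the TPM of *Slc1a2* in mouse 2 tumors 1, 2 and 3, and 43.5%, 51.7% and 55.7% in mouse 1 tumors 1, 2 and 3. Mouse 2 tumor 3 thus had the highest share, with 350.3 TPM from the internal exon and 97.8 TPM from the outer one, beside 179 and 164 TPM in mouse 2 tumor 1. The outer transcript *Slc1a2-202* has 11595 bases against 1957 in *Slc1a2-203*, and these shares are of TPM. By estimated reads the internal class had 6447, 5595 and 11507 in mouse 2, and 71.1, 6472 and 8563 in mouse 1. The outer class had 37001, 27658 and 19998 reads in mouse 2, and 574, 35139 and 43206 in mouse 1. The classes also differ at the 3′ end, so the shares do not isolate the choice of start.

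**Figure D2:**
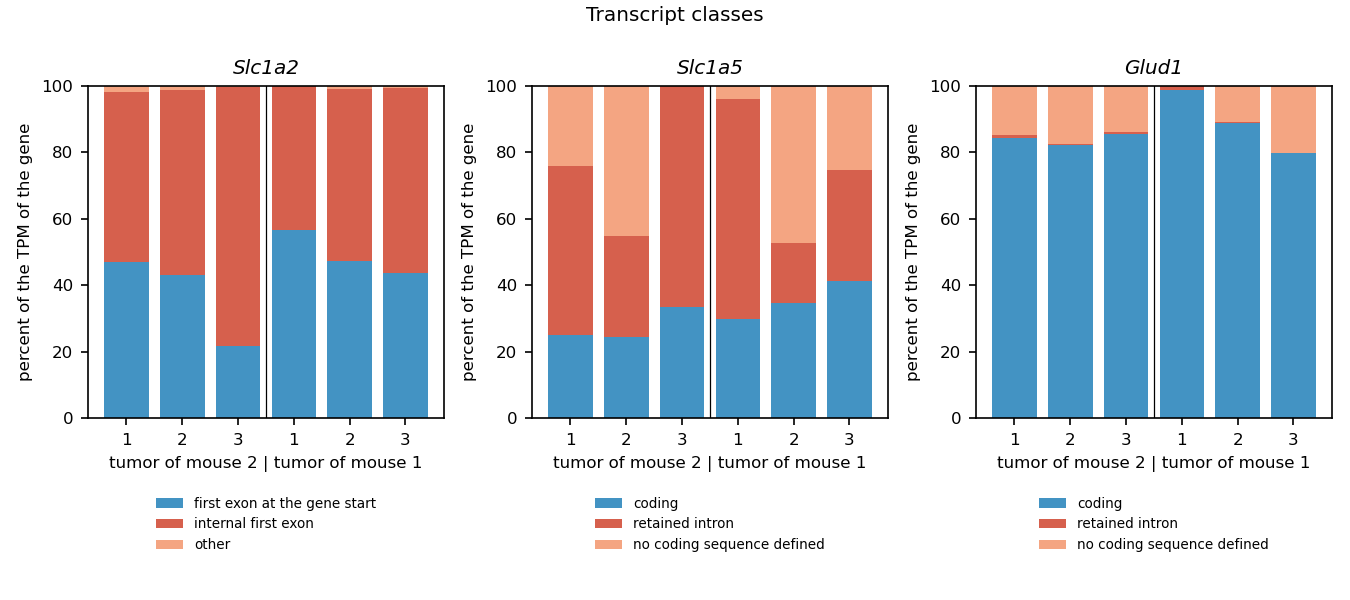
Percent of the TPM of *Slc1a2*, *Slc1a5* and *Glud1* by class of transcript, stacked to 100, for the tumors of mouse 2 at the left and of mouse 1 at the right. For *Slc1a2* the internal first exon takes 77.9% in mouse 2 tumor 3 and 43.5% to 55.7% in the other 5 tumors, and for *Slc1a5* coding transcripts take 24.3% to 41.3%.

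The glutamine carriers *Slc38a3* and *Slc38a2* exchanged their order in 1 tumor. *Slc38a3* had 223, 200.3 and 186 TPM in mouse 2 tumors 1, 2 and 3, and 10.2, 295 and 305 TPM in mouse 1 tumors 1, 2 and 3. Mouse 1 tumors 2 and 3 were above all tumors of mouse 2 in TPM. The mean was 203 ± 106 TPM (SD, n = 6) and 242 ± 54.8 TPM (SD, n = 5). *Slc38a3* lies on chromosome 9 from 107651154 to 107668968, and *Slc38a3-209* was its main transcript in each tumor.

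*Slc38a2* had 35.8, 38.0 and 27.95 TPM in mouse 2 tumors 1, 2 and 3, and 76.1, 30.7 and 29.4 TPM in mouse 1 tumors 1, 2 and 3. In TPM it varied least of the 9 genes among the 5 tumors, 1.36-fold from lowest to highest, and was highest in mouse 1 tumor 1. On the TMM scale, per kilobase, that tumor had 41.5, next to 41.9 in mouse 2 tumor 1. On that scale *Slc38a2* did not vary least, with 23.6 to 41.9 in the 5 tumors, beside 211 to 263 for *Slc38a3*. The mean was 39.7 ± 18.3 TPM (SD, n = 6) and 32.4 ± 4.32 TPM (SD, n = 5). The ratio of *Slc38a3* to *Slc38a2* was 6.21, 5.28 and 6.66 in mouse 2, and 0.135, 9.62 and 10.4 in mouse 1. *Slc38a2* lies on chromosome 15 from 96687392 to 96699728.

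*Slc1a5* had 13.5, 22.9 and 2.51 TPM in mouse 2 tumors 1, 2 and 3, and 33.2, 16.7 and 16.9 TPM in mouse 1 tumors 1, 2 and 3. It differed most among the 5 tumors, 9.13-fold, because of mouse 2 tumor 3, where it rests on 115 reads. The mean was 17.6 ± 10.2 TPM (SD, n = 6) and 14.5 ± 7.52 TPM (SD, n = 5). Much of this level did not come from the coding transcript *Slc1a5-201*, which had 3.36, 5.57 and 0.840 TPM in mouse 2, and 9.92, 5.80 and 6.98 TPM in mouse 1. A transcript with a retained intron, *Slc1a5-202*, had 17.2 TPM in mouse 1 tumor 1 and 1.08 to 3.596 TPM elsewhere. By the coding transcript alone mouse 2 tumor 3 was still the lowest and mouse 1 tumor 1 the highest. *Slc1a5* lies on chromosome 7 from 16781334 to 16798274. *Slc1a4*, a related exchanger of alanine and serine, had 30.4, 43.3 and 7.16 TPM in mouse 2 and 21.8, 41.1 and 43.2 TPM in mouse 1, with mouse 2 tumor 3 again the lowest.

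Over the 5 tumors without mouse 1 tumor 1 the order by mean TPM was *Glul*, *Oat*, *Slc1a2*, *Glud1*, *Slc38a3*, *Rhbg*, *Slc38a2*, *Slc1a5* and *Gls2*. The ranges of neighbours did not overlap, with the exception of *Glud1* and *Slc38a3*, whose ranges of 207 to 308 and 186 to 305 TPM did. *Slc38a3* exceeded *Glud1* in mouse 2 tumor 1 and in mouse 1 tumor 2, and *Glud1* exceeded *Slc38a3* in the other 3. In mouse 1 tumor 1 the order was *Glul*, *Oat*, *Glud1*, *Slc38a2*, *Slc1a5*, *Slc38a3*, *Slc1a2*, *Gls2* and *Rhbg*. *Glul* and *Oat* thus led in all 6 tumors.

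Mouse 1 tumor 1 was set beside the other 5 as a description, since it is 1 tumor and was known to stand apart. Of the 8 members with a mean of at least 1 TPM, 5 were at least 4-fold lower in it than the mean of the other 5, and 0 were at least 4-fold higher. Of all 12518 genes at that level, 13.9% were at least 4-fold lower and 26.6% at least 4-fold higher. The mean of the other 5 exceeded mouse 1 tumor 1 by 74.5-fold for *Slc1a2*, 39.5-fold for *Rhbg*, 23.6-fold for *Slc38a3*, 6.94-fold for *Oat*, 5.54-fold for *Glul* and 2.87-fold for *Glud1*. Among the 6 lower genes, *Slc1a2*, *Rhbg* and *Slc38a3*, which carry substrates across membranes, were thus farther below than the enzymes *Oat*, *Glul* and *Glud1*. The carriers *Slc38a2* and *Slc1a5* and the enzyme *Gls2* were higher there, so this order does not hold for carriers and enzymes as classes. Mouse 1 tumor 1 exceeded the mean of the other 5 by 2.35-fold for *Slc38a2*, 2.29-fold for *Slc1a5* and 8.20-fold for *Gls2*. The median gene was itself higher there, by 0.87 on the log2(TPM + 1) scale, and by 0.05 after TMM scaling, which sets libraries level on the bulk of genes. After TMM scaling the log2 ratio was 0.31 for *Slc38a2*, 0.85 for *Slc1a5* and 1.92 for *Gls2*, and between -2.42 (*Glud1*) and -6.75 (*Slc1a2*) for the 6 lower genes, so that directions were the same on both scales. The hepatocyte markers moved with these 6 genes, as given above, and their part in the result was not tested. *Cyp2e1*, a pericentral cytochrome P450, had 169 TPM in that tumor and 4285 to 9001 TPM in the other 5, and *Notum*, a secreted Wnt feedback inhibitor, had 1822 TPM there and 17.4 to 101 TPM in the other 5.

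**Figure D3:**
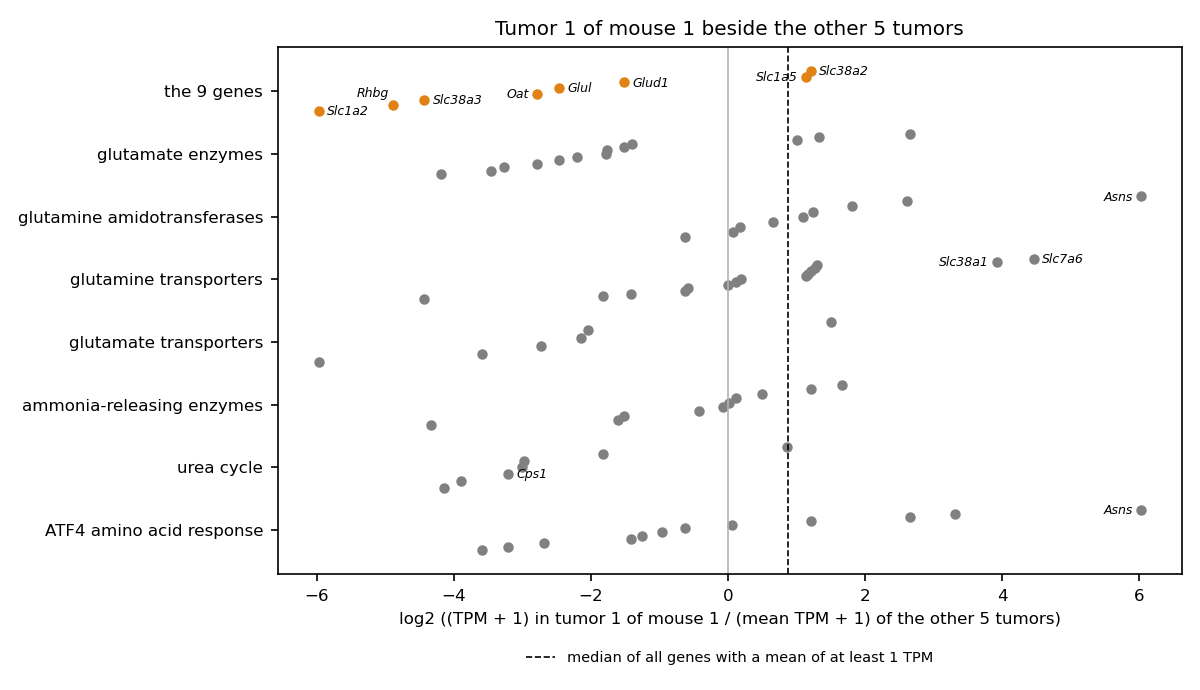
Log2 of TPM + 1 in mouse 1 tumor 1 over the mean TPM + 1 of the other 5 tumors, with 1 point per gene that averaged 1 TPM or more, by list (8 of the 9 genes in the top row). The dashed line is the median of all such genes at 0.87, and *Slc1a2*, *Rhbg* and *Slc38a3* lie farthest to the left of the 8.

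The question whether the 2 mice differed was asked with edgeR's quasi-likelihood test on counts, adjusted by the Benjamini-Hochberg method over all genes tested. All 9 members passed the filter on low counts. With 6 tumors 0 of the 9 were called higher and 0 lower in mouse 2, and the share of all 13268 genes called was 0% in each direction. At an unadjusted p under 0.05 the count over all genes was 1449, DESeq2 called 133 genes higher and 69 lower, and limma-voom called 0. Without mouse 1 tumor 1, 0 of the 9 were called higher and 0 lower, where 0.419% of 13374 genes were called higher (56) and 0.837% lower (112). With mouse 1 tumors 2 and 3 averaged into 1 sample, which leaves 1 sample for mouse 1, nearly all of these calls were lost. With the 5 tumors as separate samples, the standard errors of the members fell to between 0.14 and 0.55 on the log2 scale. The contrast is thus between a pair of animals, judged by how far tumors of the same animal lie apart.

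*Slc38a2* came closest. It was higher in mouse 2 by 0.71 ± 0.14 (log2 fold change ± SE) without mouse 1 tumor 1, with an adjusted p of 0.0738 by edgeR's quasi-likelihood test, and DESeq2 (adjusted p = 2.71e-05) and limma-voom (adjusted p = 0.0498) called it. On the TMM scale, per kilobase, it had 41.9, 38.9 and 37.7 in mouse 2 and 24.96 and 23.6 in mouse 1 tumors 2 and 3, which do not overlap. In TPM the same tumors overlap. *Glul* differed in the other direction, by -0.44 ± 0.21 (adjusted p = 0.305, edgeR), and its 3 tumors of mouse 2 were below mouse 1 tumors 2 and 3 on every scale used. Its mean in mouse 2 was 0.503 of that in mouse 1 tumors 2 and 3 in TPM, 0.593 without mitochondrial genes and 0.734 after TMM scaling. Mitochondrial genes took 12.9% to 18.4% of the counts in mouse 2 and 6.85% to 8.34% in mouse 1, and they fill part of the fixed sum of TPM. The median gene shifted by -0.40 between the mice on the log2(TPM + 1) scale in this comparison, against 0.01 with TMM. Of the remaining members, *Glud1* had 0.39 ± 0.26, *Rhbg* 0.43 ± 0.38, *Gls2* 0.51 ± 0.52, *Slc1a2* 0.18 ± 0.19, *Oat* 0.12 ± 0.24, *Slc1a5* 0.09 ± 0.55 and *Slc38a3* -0.00 ± 0.17. Of these *Glud1*, *Rhbg*, *Gls2*, *Slc1a2*, *Oat* and *Slc1a5* were higher in mouse 2 by TMM and lower by TPM, so that no direction between the mice is given for them.

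**Figure D4:**
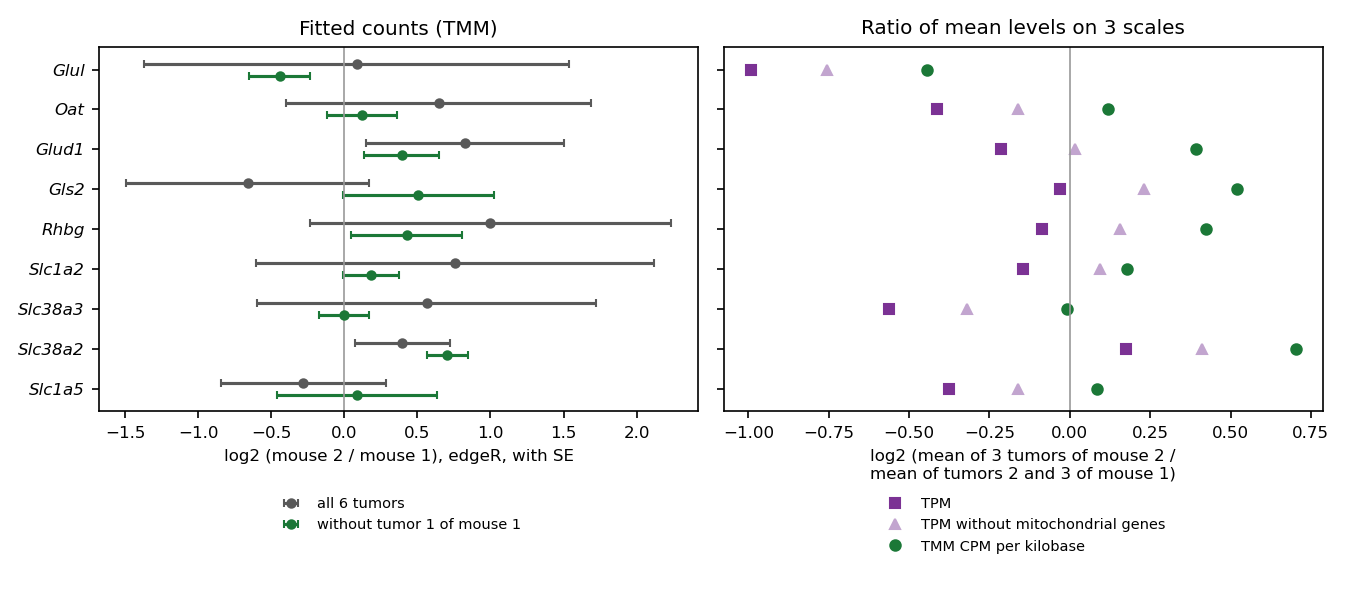
Left, log2 fold changes of mouse 2 over mouse 1 with SE from edgeR for the 9 genes, with all 6 tumors and without mouse 1 tumor 1. Right, log2 of the mean of mouse 2 over the mean of mouse 1 tumors 2 and 3 on 3 scales, where *Glul* is below 0 and *Slc38a2* above 0 on each.

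The wider pathway was read from 9 lists of genes, some of which hold members. Among the enzymes of glutamate metabolism 0 of 14 tested were called higher or lower between the mice without mouse 1 tumor 1. Their median log2 fold change was 0.26, beside 0.01 over all genes, and 0.10 without mouse 2 tumor 3 as well. List medians here and below are from the fit with TMM scaling alone. In TPM the median gene itself shifted by -0.40, as given above, so no direction between the mice is read from a list median. *Got2*, the mitochondrial aspartate aminotransferase, had 178, 212 and 238 TPM in mouse 2, and 91.5, 289 and 293 TPM in mouse 1. Of the 13 with a mean of at least 1 TPM, 6 were at least 4-fold lower and 1 at least 4-fold higher in mouse 1 tumor 1. Of all genes at that level these shares were 13.9% and 26.6%. *Aldh4a1*, which completes the route from proline to glutamate, had 24.4 TPM in mouse 1 tumor 1 and 91.4 to 191 TPM in the other 5.

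The amidotransferases, which spend the amide nitrogen of glutamine on nucleotides and asparagine, were low in 5 tumors. Their summed level was 54.0, 67.9 and 56.3 TPM in mouse 2, and 510.0, 85.0 and 89.0 TPM in mouse 1. Most of the excess in mouse 1 tumor 1 was *Asns*, asparagine synthetase, with 398 TPM there, beside 0.501, 5.59 and 0.794 TPM in mouse 2 and 8.60 and 10.2 TPM in mouse 1 tumors 2 and 3. *Ctps1*, which makes CTP, had 24.2 TPM in mouse 1 tumor 1, 8.14 and 8.76 TPM in tumors 2 and 3 of that mouse, and 2.24 to 8.18 TPM in mouse 2. *Ctps2* had 32.2 TPM in mouse 1 tumor 1 and 26.7 to 35.4 TPM in the other 5. With a mean of at least 1 TPM were 9 amidotransferases. In mouse 1 tumor 1, 2 of them were at least 4-fold higher and 0 at least 4-fold lower, where 26.6% and 13.9% of all 12518 genes were. Between the mice 0 of 9 tested were called.

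Of the glutamine transporters, 0 of 15 tested were called between the mice. *Slc38a4*, a hepatocyte carrier of neutral amino acids, had 173, 138 and 198 TPM in mouse 2, and 53.4, 221 and 232 TPM in mouse 1. *Slc38a1* (SNAT1) had 0.187, 0.452 and 0.217 TPM in mouse 2, and 23.7, 1.29 and 1.01 TPM in mouse 1. *Slc7a6*, which exchanges glutamine for cationic amino acids, had 0.104, 0.506 and 0.0812 TPM in mouse 2, and 30.4, 0.794 and 0.635 TPM in mouse 1. Both were thus highest in mouse 1 tumor 1, where *Slc38a3* was lowest. The list as a whole did not stand out there. With a mean of at least 1 TPM were 15 of these transporters. In that tumor 2 of them were at least 4-fold higher and 2 at least 4-fold lower. Over all 12518 genes at that level these shares were 26.6% and 13.9%.

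Of 7 tested glutamate transporters 1 was lower and 0 higher. *Slc25a13*, the liver aspartate-glutamate carrier of mitochondria, had 5.54, 5.58 and 3.54 TPM in mouse 2 and 10.9 and 14.6 TPM in mouse 1 tumors 2 and 3, a log2 fold change of -2.06 ± 0.25 (edgeR, adjusted p = 0.0364) on 59, 81 and 77 reads in mouse 2 and 403 and 493 reads in mouse 1 tumors 2 and 3. With an offset for effective length it was -0.88 and was not called (adjusted p = 0.147). Mouse 1 tumor 1, left out of that fit, was lower still at 1.20 TPM. *Slc25a22*, a mitochondrial glutamate carrier, had 147, 111 and 54.5 TPM in mouse 2, and 26.1, 135 and 144 TPM in mouse 1, and was not called.

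Of 3 tested ammonia channels, 1 was higher and 0 lower. *Aqp8*, an aquaporin of hepatocytes that also passes ammonia, had 65.1, 90.5 and 69.9 TPM in mouse 2, and 1.92, 30.9 and 35.6 TPM in mouse 1. Every tumor of mouse 2 exceeded every tumor of mouse 1. Without mouse 1 tumor 1 the log2 fold change was 1.72 ± 0.17 (edgeR, adjusted p = 0.0219). This call was lost when mouse 1 tumors 2 and 3 were averaged into 1 sample. With all 6 tumors it was 2.28 ± 1.04 (edgeR, adjusted p = 0.506). *Rhbg*, the member on the same list, did not separate the mice.

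Among the enzymes that release ammonia, a list that also holds the members *Glud1* and *Gls2*, 0 of 12 tested were called. *Gcsh*, a subunit of the glycine cleavage system, had 69.4, 97.7 and 120.3 TPM in mouse 2, and 72.1, 101 and 95.5 TPM in mouse 1. In TPM mouse 1 tumor 1 was thus within the range of the other 5, while the median gene was higher there. Its *Gcsh* reads were the fewest of the 6 tumors, 1475 against 1637 to 2581. *Ftcd*, which ends histidine breakdown, had 2.63 TPM in that tumor and 49.3 to 88.5 TPM in the other 5. In the urea cycle 0 of 7 were called. In mouse 1 tumor 1, 5 of 7 were at least 4-fold lower, where 13.9% of all 12518 genes were. *Cps1* had 1.32, 0.501 and 112 TPM in mouse 2, and 1.60, 0.849 and 0.721 TPM in mouse 1. It is among these 5 only because of mouse 2 tumor 3, and every remaining tumor was below mouse 1 tumor 1. The tumor with *Cps1*, mouse 2 tumor 3, had *Glul* at 4197 TPM beside 4356 and 4358 TPM in the other tumors of mouse 2, so that both mRNAs were present in it, and *Slc1a5* was lowest there. Of 8 pericentral and Wnt reference genes 0 were called between the mice. Mouse 2 tumor 3 was also the highest of the 6 in *Otc*, *Ass1* and *Arg1*, further enzymes of the cycle. *Ass1* had 242, 136 and 787 TPM in mouse 2, and 37.2, 165 and 171 TPM in mouse 1. The median log2 fold change of the urea cycle list without mouse 1 tumor 1 was 1.86, beside 0.01 over all genes, and 0.58 when mouse 2 tumor 3 was left out as well. With and without that tumor of mouse 2, the medians were -0.46 and -0.30 for the pericentral and Wnt list, 0.45 and 0.26 for the ammonia-releasing enzymes, 0.43 and 0.72 for the ammonia channels, -0.31 and 0.07 for the glutamate transporters, -0.17 and -0.04 for the glutamine transporters and -0.21 and -0.18 for the amidotransferases.

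*Slc38a2* and *Asns* are known targets of ATF4, the transcription factor of the amino acid response, and of 12 tested genes of that response 1 was higher in mouse 2 and 0 lower, with a median log2 fold change of 0.72, and 0.83 without mouse 2 tumor 3 as well. *Atf5*, a related factor, had 451, 391 and 380 TPM in mouse 2 and 276 and 280 TPM in mouse 1 tumors 2 and 3, a log2 fold change of 1.23 ± 0.18 (edgeR, adjusted p = 0.0484), and 54.3 TPM in mouse 1 tumor 1. Its call was lost with RLE scaling (edgeR, adjusted p = 0.0502). *Atf4* had 0.77 ± 0.16 (edgeR, adjusted p = 0.0791). The list did not move together in mouse 1 tumor 1. Of its 12 genes, 3 were at least 4-fold higher there than the mean of the other 5, and 3 at least 4-fold lower. Over all 12518 genes compared in this way the shares were 26.6% and 13.9%, so the list did not stand out for high genes. The 3 higher genes were *Asns*, *Psat1* (65.0 TPM, against 3.47 to 22.4 in the other 5) and *Phgdh* (34.8 TPM, against 0.427 to 6.36). *Trib3* (2.37 TPM, against 17.2 to 42.6) was among the 3 lower. *Phgdh* and *Trib3* were picked once their values were known.

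The genes whose pattern over the 6 tumors was most like that of a member were found by the root mean square distance between log2(TPM + 1) profiles, each centred on its own mean, among 8759 genes that averaged 5 TPM or more. *Slc38a3* had the closest neighbours, with *Pcx*, pyruvate carboxylase, at 0.043 and the flavin monooxygenase *Fmo5* at 0.055. *Glul* was nearest to *Antxr2* (0.085), which had 6.30, 7.47 and 6.16 TPM in mouse 2 and 1.11, 13.6 and 14.7 TPM in mouse 1. *Oat* was nearest to *Lipg* (0.1004), *Rhbg* to *Ugt1a9* (0.135), a glucuronosyltransferase, and *Slc1a2* to *Gulo* (0.150), the last enzyme of vitamin C synthesis in mice. *Glud1* was nearest to *Epb41l5* (0.081), *Slc38a2* to *Gm10123* (0.053), a processed pseudogene whose reads may belong to its parent gene, and *Slc1a5* to *Cd44* (0.156), a surface glycoprotein with 9.94, 16.5 and 1.51 TPM in mouse 2 and 19.4, 13.5 and 13.8 TPM in mouse 1. *Gls2* was under the level limit. No member was among the 3 nearest neighbours of another. These distances rest on 6 tumors from 2 mice and are a description without a test.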

How the data were processed

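RNA from 6 tumors was sequenced from poly A libraries, while the series text speaks of total RNA. The authors deposited, per transcript, an estimated count that was not normalized, the TPM, and the length and effective length in bases, in the layout of Salmon. In the submitters' processing notes BWA, Picard and GRCm38 are listed. For the transcript index, the release was not given in the sources used here. Identifiers were matched without version to GENCODE (114813 matched, 1733 did not) for names and types, and values were summed per gene. Positions and promoters are from RefSeq (GRCm38.p6).

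Mouse 2 was compared with mouse 1 on rounded counts by edgeR 4.0.16 (quasi-likelihood, TMM, filterByExpr, two-sided, adjusted p under 0.05), with DESeq2 1.42.0 and limma 3.58.1 as alternatives. The SE is the log2 fold change divided by the square root of F. Fits were also run on simulated counts drawn independently for each tumor, without an effect shared by tumors of an animal. That run cannot show how the test behaves for a contrast between animals. Other software was scipy 1.17.1, pandas 2.3.3, matplotlib 3.10.9 and numpy 2.4.6 under Python 3.11.15, and R 4.3.3. Tumors of a mouse are not separate animals, so p-values measure only the spread between tumors of 1 animal, part of which may be technical. Counting limits cover counting error only.

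The members, the lists and the comparison were chosen with earlier results of these data known. The rule names the 9 members, *Cps1*, up to 4 genes per list by mean TPM and up to 3 by p, the 3 nearest profiles of each member, and 1 or 2 markers per cell type. *Phgdh*, *Trib3*, *Rhcg*, *Aldh4a1*, *Slc1a1*, *Slc1a4* and the neural and glial markers beyond 2 were named after their values were seen. A gene that the rule also names is not reported here and was left out of the lists. Symbols *Ctps1* and *Trf* replaced older ones.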

Additional observations from a re-analysis of the deposited data

Results flagged for a closer look

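Dixon's ratio, the gap of the lowest or highest tumor to its neighbour over the whole range, was computed on log2(TPM + 1) of each member over the 6 tumors. It exceeded the critical value of 0.625 in 8 of the 9 genes, each time for mouse 1 tumor 1, which was known to stand apart. Chance alone gives such a mark in about 1 of 20 groups, but of all 12518 genes that averaged 1 TPM or more 37.6% had it for mouse 1 tumor 1, so the background in these tumors was far higher. The ratio was 0.921 for *Slc1a2*, 0.851 for *Slc38a3*, 0.761 for *Oat*, 0.714 for *Rhbg*, 0.659 for *Glud1* and 0.648 for *Glul*, in which that tumor was lowest. It was 0.837 for *Gls2* and 0.697 for *Slc38a2*, in which that tumor was highest in TPM. On the TMM scale, per kilobase, *Slc38a2* had 41.5 in that tumor, below 41.9 in mouse 2 tumor 1. For *Slc1a5* the farthest tumor was mouse 2 tumor 3, with a ratio of 0.621, just under the critical value.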

How the results depend on the processing

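With 6 tumors the counts of genes called stayed at 0 with RLE or library size scaling, no filter, limma-voom, an effective length offset and limma on log2(TPM + 1) or log2(TPM + 0.1), while DESeq2 called 133 higher and 69 lower. Leaving out each tumor in turn gave 0 to 56 genes higher and 0 to 112 lower, the highest without mouse 1 tumor 1. It gave log2 fold changes of -0.44 to 0.48 for *Glul*, -1.04 to 0.51 for *Gls2*, -0.0046 to 0.99 for *Slc38a3* and -0.61 to 0.14 for *Slc1a5*, none of them called. Library size scaling turned *Glul* to -0.21 and *Slc38a2* to -0.20, and limma on TPM turned *Slc38a2* to -0.28 with either pseudocount, again without a call. Without mouse 1 tumor 1 the genes higher and lower were 20 and 131 with library size scaling, 197 and 263 with no filter, 782 and 587 with DESeq2, 177 and 300 with limma-voom, 29 and 68 with the length offset, 25 and 473 with limma on log2(TPM + 1), and, both chosen after seeing the data, 1 and 0 with mouse 1 tumors 2 and 3 as 1 sample and 398 and 309 without mouse 2 tumor 3. In DESeq2, limma-voom and the last of these, 1 member was called higher, *Slc38a2*. Library size scaling there turned *Oat* to -0.14, *Slc1a2* to -0.082 and *Slc1a5* to -0.12, limma-voom turned *Slc1a5* to -0.085, and limma on TPM turned *Oat* to -0.43, *Rhbg* to -0.22, *Slc1a2* to -0.16, *Gls2* to -0.013, *Glud1* to -0.23 and *Slc1a5* to -0.74, none of them called. The cause was not tested. The mean of *Glud1* was 334 TPM without mitochondrial genes, and that of *Slc1a5* was 5.41 TPM from coding transcripts alone. Tumor numbers did not pair the mice (correlations of deviations 0.03, -0.04 and 0.05), and with tumor number as a replicate block 0 genes were called, with 0.64 for *Glul* and 0.44 for *Slc38a2*. In mouse 1 tumor 1 no member changed direction between TPM, TPM without mitochondrial genes, coding transcripts or TMM scaling, which were compared after seeing the data. *Gls2* is limited by depth, with 10 to 19 reads in 5 tumors. Of the calls outside the members, *Atf5* was lost in edgeR with library size scaling (adjusted p = 0.0611) and the length offset (adjusted p = 0.0661) and in limma on TPM (adjusted p = 0.0820), *Slc25a13* was lost in limma on TPM (adjusted p = 0.0595), and with mouse 1 tumors 2 and 3 as 1 sample edgeR gave adjusted p = 0.600 for *Atf5* and adjusted p = 0.456 for *Slc25a13*.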
